A study of Mus musculus with 7 samples.

Results

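The TGF-beta and PDGF ligands and receptors were examined in mouse precision-cut liver slices (PCLS), as a set of 10 genes out of the 55487 genes of the count table. The members were the 3 TGF-beta ligands Tgfb1, Tgfb2 and Tgfb3, the receptors Tgfbr1 and Tgfbr2, the intracellular inhibitor Smad7, the PDGF ligands Pdgfa and Pdgfb, and the receptors Pdgfra and Pdgfrb. They were chosen by name, with each symbol matched to its Ensembl gene in the GENCODE annotation of GRCm38. All 10 had counts and all 10 passed the filter on low counts. The slices came from livers of healthy male Balb/c mice and were collected after 3 days in culture. The 3 CTR libraries came from slices in regular Williams' medium E without valproic acid, and the 4 VPA libraries from slices in the same medium with the sodium salt of valproic acid (VPA) at 2.5 mM, a short-chain fatty acid that inhibits class I histone deacetylases. The comparison was made to see what VPA did to the cultures, in which slicing itself sets off activation of the hepatic stellate cell (HSC), the liver's pericyte and main source of scar matrix. No uncultured liver was analysed here, so both groups carry the effects of slicing and culture. A slice holds all cell types of the liver, and a bulk library cannot tell fewer cells of a type from less RNA per cell. The study's methods count each mouse liver as a biological repeat, but the labels do not tie libraries to mice, so p-values measure the spread between these libraries, which may in part be technical.

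TGF-beta is made as a latent dimer that is bound in the matrix and must be released before it can act. The active ligand binds the type II receptor, which recruits and phosphorylates the type I receptor. The type I receptor phosphorylates Smad2 and Smad3, which move to the nucleus with Smad4 and switch on matrix genes as well as their own inhibitor Smad7. PDGF chains pair into dimers that bring receptor tyrosine kinases together at the cell surface. In injured liver, TGF-beta is the main signal for collagen production by HSCs, and PDGF is a main signal for their proliferation and migration.

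Promoter sequences of Tgfb1 and Tgfb2 are shown because these are the 2 TGF-beta ligands with the highest mean level in CTR and because their levels are set against each other in each library further on. Both are the 250 bases before the start of the gene in RefSeq (build GRCm38.p6), read 5′ to 3′ on the strand of the gene. Capitals mark matches on either strand to TATAAA (the TATA box), GGGCGG (the GC box bound by Sp1) or CAGAC (the SMAD binding element). No letters are shared between matches to different motifs in these sequences.
Tgfb1, chr7:25686752-25687001, plus strand: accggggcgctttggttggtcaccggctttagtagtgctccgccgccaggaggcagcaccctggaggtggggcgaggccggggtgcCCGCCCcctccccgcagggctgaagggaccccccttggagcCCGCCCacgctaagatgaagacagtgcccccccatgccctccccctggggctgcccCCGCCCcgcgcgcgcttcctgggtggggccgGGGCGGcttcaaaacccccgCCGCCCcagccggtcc
Tgfb2, chr1:186705990-186706239, minus strand: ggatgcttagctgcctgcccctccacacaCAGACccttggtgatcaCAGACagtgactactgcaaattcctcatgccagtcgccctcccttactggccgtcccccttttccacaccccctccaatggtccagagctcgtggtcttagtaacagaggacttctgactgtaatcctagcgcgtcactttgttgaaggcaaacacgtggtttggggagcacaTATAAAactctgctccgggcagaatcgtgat
The window of Tgfb1 was 75.2% G or C and held 5 GC boxes, with no match to the other motifs. In contrast, the window of Tgfb2 was 53.6% G or C and held 1 TATA box and 2 SMAD elements, with no GC box. Over the 32851 windows of this length in the table, 12.4% held TATAAA, 32.7% held GGGCGG and 42.2% held CAGAC on either strand. A match describes the letters only. Of the 10 members, 6 had a promoter in the table. Those without were Tgfb3, Smad7, Pdgfb and Pdgfrb.

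QuantSeq sequences 1 stretch at the 3′ end of each polyadenylated RNA, so longer genes do not collect more reads. Levels are therefore given as CPM, the count scaled to the TMM-normalized library size. How reads were assigned to genes is not given in the sources used here, and a gene whose reads were left out would read too low, so levels compared between genes describe this table. The counts on genes were between 1743675 and 4773750 in CTR and between 1400887 and 3102450 in VPA. The limit that a count of 0 sets (3 counts, for counting error only) was 0.591 CPM in the deepest library and 2.41 CPM in VPA replicate 3. Mitochondrially encoded RNA took 14.5 to 27.7% of the counts in CTR and 23.9 to 32.5% in VPA. The tissue label was checked against hepatocyte markers, which summed to between 2789 and 11684 CPM over the 7 libraries with Ahsg the highest. Some single markers were low, and are named after their values were seen. Cps1 was at 0 in CTR replicate 2 and VPA replicate 2, and at most at 22.9 CPM. Cyp2e1 was at 0 in CTR replicate 1, and Tat in CTR replicate 3 and VPA replicates 1, 3 and 4. Ass1, a urea cycle enzyme abundant in hepatocytes, was at 0 in all 7 libraries, and whether its reads were left out in the counting was not tested. Tests were made with edgeR's quasi-likelihood test over the 10876 genes that filterByExpr kept, and p-values were adjusted by Benjamini-Hochberg with a threshold of 0.05.

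None of the 10 members differed between VPA and CTR in edgeR's test, either at an adjusted p under 0.05 or at an unadjusted p under 0.05. DESeq2 and limma-voom called none of them either after adjustment. Of the 10876 genes tested, edgeR called 0.00919% higher with VPA (1 gene, Creb3l3, named here after its values were seen) and 0% lower at the adjusted threshold. At an unadjusted p under 0.05, 3.65% of the genes were higher and 4.62% lower. DESeq2 called 0.256% higher and 0.754% lower out of the 15261 genes to which it gave an adjusted p. Of the members, 7 had a lower and 3 a higher estimate in VPA, and their median was −0.25 on the log2 scale. Of all genes tested, 54.2% had a lower estimate, with a median of −0.06. The split of 7 lower and 3 higher was the same with RLE, upper quartile and library-total scaling. It was 8 and 2 without a filter on low counts and with limma-voom, and 6 and 4 with a replicate block by slice culture, after thinning to the smallest library and without VPA replicate 1 or 3.

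**Figure D1:**
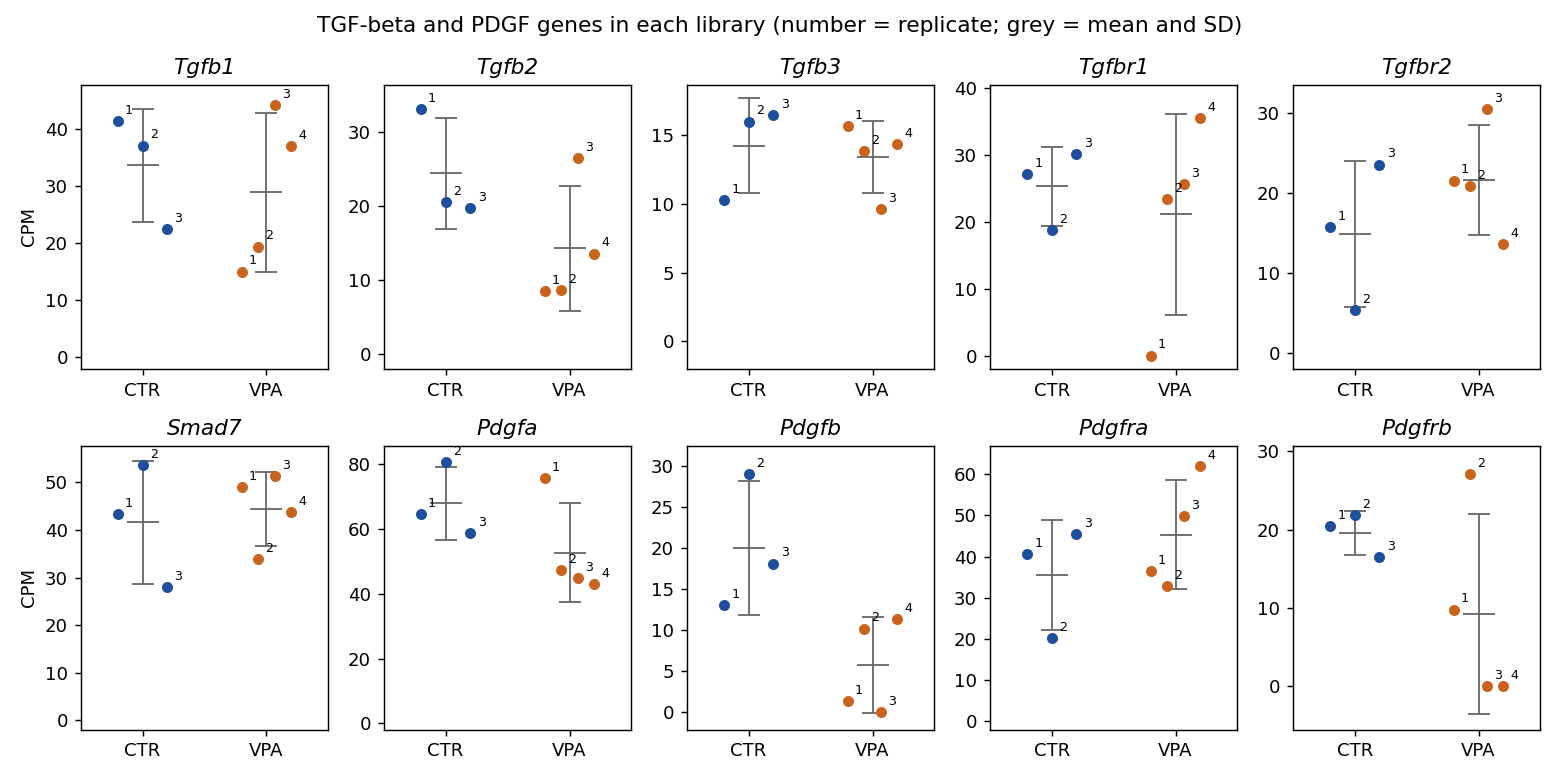
TGF-beta and PDGF genes in each library. Each panel plots CPM (vertical axis) in the 3 CTR and 4 VPA libraries (horizontal axis), with points numbered by replicate and grey bars for the mean and SD. In 9 of the 10 panels the groups overlap, and Pdgfb is the gene whose 4 VPA libraries all lie below the 3 CTR libraries.

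Of the TGF-beta ligands, Tgfb1 (ENSMUSG00000002603, chr7:25687002-25705077, plus strand) encodes the isoform best known for driving matrix production by HSCs. It measured 41.4, 37.1 and 22.5 CPM in CTR replicates 1, 2 and 3. In VPA replicates 1 to 4 it measured 15.0, 19.4, 44.2 and 37.0 CPM. The highest and the lowest value were both from VPA libraries, and the groups overlapped. The means were 33.6 ± 9.90 CPM (SD, n = 3) in CTR and 28.9 ± 13.9 CPM (SD, n = 4) in VPA. The log2 fold change was −0.23 (SE 0.442, 95% interval −1.26 to 0.80; edgeR quasi-likelihood test, adjusted p = 0.957).

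Tgfb2 (ENSMUSG00000039239, chr1:186622792-186705989, minus strand), an isoform that needs the co-receptor betaglycan for efficient binding, measured 33.1, 20.5 and 19.7 CPM in CTR. The VPA libraries held 8.49, 8.61, 26.5 and 13.6 CPM. VPA replicates 1, 2 and 4 were below every CTR library, while VPA replicate 3 was within the CTR range. The mean was 24.4 ± 7.50 CPM (SD, n = 3) in CTR and 14.3 ± 8.47 CPM (SD, n = 4) in VPA. The difference did not pass the test, at a log2 fold change of −0.78 (SE 0.509, 95% interval −1.97 to 0.40; edgeR, adjusted p = 0.792). Its estimate was the lowest of the 3 ligands.

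Tgfb3 (ENSMUSG00000021253, chr12:86056745-86079041, minus strand), the third isoform, measured 10.2, 16.0 and 16.4 CPM in CTR and 15.7, 13.8, 9.63 and 14.3 CPM in VPA. The groups covered nearly the same range. VPA over CTR gave a log2 fold change of −0.09 (SE 0.430, 95% interval −1.09 to 0.91; edgeR, adjusted p = 0.981). Ttll5 on the other strand overlaps the gene, although not in an exon, and held 308 counts in all against 237 for Tgfb3. Whether the counting used strand is not given in the sources used here.

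Of the receptors, Tgfbr1 (ENSMUSG00000007613, chr4:47353222-47414931, plus strand) encodes the type I receptor kinase ALK5. It measured 27.2, 18.7 and 30.2 CPM in CTR. It had no count in VPA replicate 1, which allows up to 1.96 CPM, and 23.4, 25.7 and 35.5 CPM in VPA replicates 2, 3 and 4. The last 3 were within or above the CTR range. The log2 fold change was −0.26 with all libraries (SE 1.018, 95% interval −2.64 to 2.11; edgeR, adjusted p = 0.975) and 0.16 without VPA replicate 1, so that this library set its sign.

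Tgfbr2 (ENSMUSG00000032440, chr9:116084293-116175360, minus strand), the type II receptor that binds the ligand first, measured 15.8, 5.32 and 23.6 CPM in CTR. The VPA libraries held 21.5, 20.9, 30.5 and 13.6 CPM. Only VPA replicate 3 was above every CTR library, and the lowest value of all was that of CTR replicate 2. Its log2 fold change was 0.55 (SE 0.559, 95% interval −0.75 to 1.85; edgeR, adjusted p = 0.908).

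Smad7 (ENSMUSG00000025880, on chromosome 18), which blocks the type I receptor and is itself a target of the pathway, measured 43.3, 53.6 and 28.0 CPM in CTR and 49.0, 33.8, 51.4 and 43.8 CPM in VPA. Every VPA library was within the CTR range. Its estimate was a log2 fold change of 0.09 (SE 0.284, 95% interval −0.57 to 0.75; edgeR, adjusted p = 0.971), and its sign turned to −0.02 with limma-voom and without the filter on low counts.

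Of the PDGF ligands, Pdgfa (ENSMUSG00000025856, chr5:138976014-138997370, minus strand) encodes the A chain, whose homodimer signals through the alpha receptor. It was the best counted member, at 64.6, 80.6 and 58.7 CPM in CTR. In VPA it measured 75.7, 47.3, 45.0 and 43.0 CPM. VPA replicates 2, 3 and 4 lay close together below every CTR library, and VPA replicate 1 was within the CTR range. The means were 68.0 ± 11.4 CPM (SD, n = 3) and 52.8 ± 15.4 CPM (SD, n = 4). Its log2 fold change was −0.37 (SE 0.256, 95% interval −0.96 to 0.23; edgeR, adjusted p = 0.829) and had the narrowest interval among the members. An antisense gene that shares exon sequence with it, 6330403L08Rik, held 83 counts in all against 1063 for Pdgfa.

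Pdgfb (ENSMUSG00000000489, chr15:79995874-80014977, minus strand) encodes the B chain, which in liver comes largely from endothelial cells and platelets and signals to HSCs. The CTR libraries held 33, 147 and 33 counts, or 13.0, 29.0 and 18.1 CPM. The VPA libraries held 2, 33, 0 and 15 counts, or 1.31, 10.1, 0 and 11.3 CPM, where the 0 of VPA replicate 3 allows up to 2.41 CPM. All 4 VPA libraries were below all 3 CTR libraries, which was so for 1 of the 10 members and for 7.41% of all genes tested. None of the members, and 4.44% of all genes tested, lay above CTR in every VPA library. The mean was 20.0 ± 8.16 CPM (SD, n = 3) in CTR and 5.70 ± 5.87 CPM (SD, n = 4) in VPA. The estimate was the lowest among the members in the reported fit, at a log2 fold change of −1.78, which is 3.44-fold lower, and did not pass the test (SE 1.084, 95% interval −4.31 to 0.74; adjusted p = 0.761 by edgeR and 0.807 by DESeq2). Pdgfrb was lower than Pdgfb with a block by slice culture (−3.39 against −1.94) and without VPA replicate 2 (−2.52 against −2.24).

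Markers of endothelial cells were summed beside Pdgfb. The 12 markers, of which Kdr was the highest, summed to between 368 and 424 CPM in CTR and between 77.0 and 342 CPM in VPA, without overlap. Of the 10 that were tested, 8 had a lower estimate and none passed edgeR's adjusted threshold. DESeq2 called Tek (adjusted p = 9.6e-05, against 0.239 by edgeR), an endothelial receptor tyrosine kinase named here after its values were seen. It measured 13.0, 16.0 and 16.4 CPM in CTR and was at 0 in all 4 VPA libraries. Other markers went the other way, and are likewise named after their values were seen. Lyve1 (log2 fold change 0.20) and Oit3 (0.35) were the 2 tested markers with a higher estimate. Clec4g was at 0 in CTR and at 7.69 and 2.27 CPM in VPA replicates 2 and 4. Kdr was highest in VPA replicate 2, at 139 CPM. None of the 12 was at 0 in every library. The lowest sums were 77.0 CPM in VPA replicate 1 and 101 CPM in VPA replicate 3, which were also the libraries lowest in Pdgfb. These are likewise the libraries with the largest shares of genes at 0 among all genes of the members' level, at 11.5% and 6.23%. For platelets and megakaryocytes, the summed markers overlapped, at 34.5 to 60.5 CPM in CTR and 21.2 to 80.1 CPM in VPA, and 3 of the 6 (Ppbp, Gp9 and Gp6) were at 0 in every library. Among the 10 cell type lists summed, endothelial cells were the only one whose groups did not overlap. The sums for HSCs, macrophages, hepatocytes, cholangiocytes, smooth muscle, portal fibroblasts, lymphocytes and mesothelium overlapped. Of all single genes tested, 7.41% lay below and 4.44% above CTR in every VPA library, so 1 list of 10 is near the background. No such share was computed for sums. The part of endothelial cells, platelets and megakaryocytes in the level of Pdgfb was not tested.

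Of the PDGF receptors, Pdgfra (ENSMUSG00000029231, chr5:75152292-75198215, plus strand) encodes the alpha receptor, which binds both chains. It measured 40.6, 20.3 and 45.5 CPM in CTR and 36.6, 32.9, 49.8 and 61.9 CPM in VPA. VPA replicates 3 and 4 were above every CTR library and the other two were within the CTR range. This gave a log2 fold change of 0.35 (SE 0.362, 95% interval −0.49 to 1.20; edgeR, adjusted p = 0.908).

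Pdgfrb (ENSMUSG00000024620, on chromosome 18) encodes the beta receptor, a receptor of HSCs and other pericytes that is used to mark their activation. The CTR libraries were close to each other, with 52, 111 and 30 counts, or 20.5, 21.9 and 16.4 CPM. The VPA libraries were not, with 15, 88, 0 and 0 counts, or 9.79, 27.1, 0 and 0 CPM. VPA replicate 2 was thus above every CTR library, VPA replicate 1 was lower, and the 2 libraries at 0 allow up to 2.41 and 2.27 CPM. The log2 fold change was −1.04, with the widest interval among the members (SE 1.358, 95% interval −4.21 to 2.13; edgeR, adjusted p = 0.937). HSC markers overlapped between the groups. Their summed level was 745 to 1833 CPM in CTR and 875 to 2655 CPM in VPA, with 1621 CPM in VPA replicate 3 and 2655 CPM in VPA replicate 4, the libraries in which Pdgfrb was at 0. Dcn, the highest, made up most of these sums, with 1168 CPM in VPA replicate 3 and 1797 CPM in VPA replicate 4. Single markers differed from the sum, such as Des, at 0 in VPA replicates 1 and 3 and at 28.9 and 29.5 CPM in VPA replicates 2 and 4, and Lrat, with 3 of 4 VPA libraries below all CTR libraries, both named after their values were seen. Of the 11 HSC markers tested, 6 had a lower and 5 a higher estimate and none passed the adjusted threshold. None of the 13 was at 0 in every library.

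Counts of 0 at such levels were more frequent among VPA than CTR libraries over the whole table. Of the 5390 tested genes with a mean within the members' range (11.8 to 59.3 CPM), 4.16% were at 0 in at least 1 CTR library, 19.7% in at least 1 VPA library and 5.96% in at least 2 VPA libraries. By library, 0.872 to 2.65% of these genes were at 0 in CTR and 4.03 to 11.5% in VPA, the highest in VPA replicate 1. Each CTR library detected 17744 to 19756 genes and each VPA library 14359 to 16761. The zeros of Tgfbr1, Pdgfb and Pdgfrb were thus shared with many genes of like level, and their source was not tested. The limits given for these zeros cover counting error only, and would not hold if reads of these genes were left out when the table was made.

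**Figure D2:**
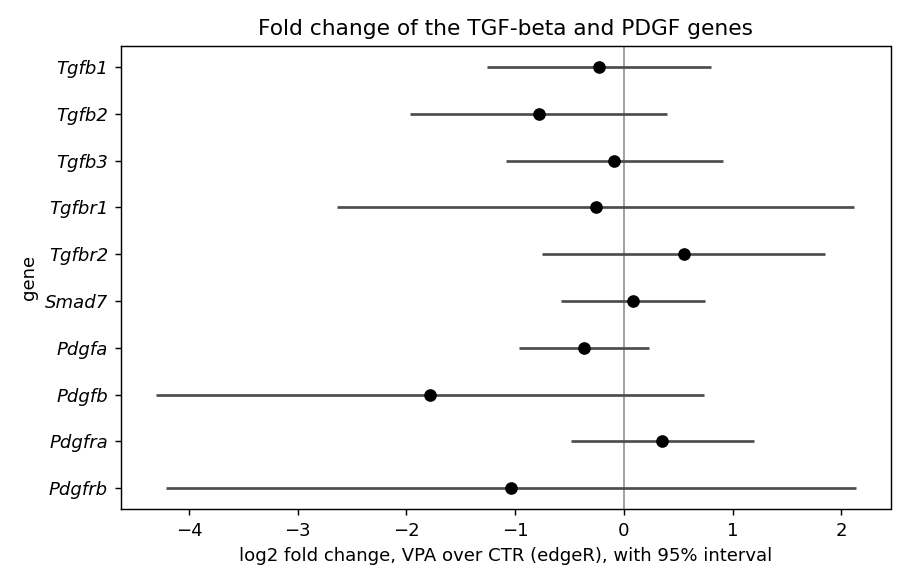
Fold change of the TGF-beta and PDGF genes. Points give the log2 fold change of VPA over CTR from edgeR (horizontal axis) for each gene (vertical axis), and lines give the 95% interval. Every interval crosses 0, from the narrowest for Pdgfa (−0.96 to 0.23) to the widest for Pdgfrb (−4.21 to 2.13).

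The intervals in the plot of fold changes set what these libraries could tell. For Smad7 and Pdgfa the interval kept within −0.96 and 0.75 on the log2 scale. For Tgfbr1, Pdgfb and Pdgfrb, the genes with a 0 in a VPA library, it reached beyond 2 in size on at least 1 side. The titles of the libraries carry a number from 71 to 74, read here as that of the slice culture, although the labels do not say whether it marks a culture, a mouse or a day. Numbers 71, 72 and 74 had both a CTR and a VPA library. Pdgfa was lower in VPA in all 3 of these cultures, by log2 differences in CPM of −0.38, −0.58 and −0.76. Pdgfb was also lower in all 3, by −0.19 in culture 72 and −1.44 in culture 74, while in culture 71 it was at 18.1 CPM in CTR and had no count in VPA, which allows up to 2.41 CPM. Pdgfra was higher in all 3, by 0.13, 0.60 and 0.67. The other 7 members differed in sign between cultures. Thus 2 of the 10 members were lower and 1 was higher in all 3, against 19.9% and 14.9% of all genes tested, which is near the background.

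The order of the members by level was led by Pdgfa in both groups. In CTR it was followed by Smad7 (41.6 CPM), Pdgfra (35.5 CPM), Tgfb1 (33.6 CPM), Tgfbr1 (25.4 CPM), Tgfb2 (24.4 CPM), Pdgfb (20.0 CPM), Pdgfrb (19.6 CPM), Tgfbr2 (14.9 CPM) and Tgfb3 (14.2 CPM). Pdgfa, at 68.0 CPM, was the only one whose range in CTR did not overlap that of the next. In VPA the means ran from 52.8 CPM for Pdgfa to 5.70 CPM for Pdgfb, and all neighbours in the order overlapped.

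Shares of counts within a library compare members without any scaling between libraries. Of the counts on the 3 TGF-beta ligands, Tgfb2 took 39.1, 27.9 and 33.6% in CTR and 21.7, 20.6, 33.0 and 20.9% in VPA. The 95% Wilson intervals of the single libraries, which cover counting error only, were as wide as 13.1 to 33.6% for the 60 counts of VPA replicate 1. VPA replicates 1, 2 and 4 were below every CTR library, and VPA replicate 3 was within their range. The mean share was 33.5 ± 5.59% (SD, n = 3) in CTR and 24.0 ± 5.99% (SD, n = 4) in VPA (two-sided exact permutation test over 35 divisions, p = 0.0857, adjusted over 6 shares p = 0.4). The smallest p that this design allows is 0.0286.

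The other shares did not pass the test either. Tgfb1, the largest part of the ligand counts in most libraries, took 45.9 ± 6.57% (SD, n = 3) in CTR and 49.2 ± 8.57% (SD, n = 4) in VPA (exact permutation test, p = 0.6). Tgfb3 took 20.6 ± 8.03% and 26.8 ± 12.3% (exact permutation test, p = 0.486). Tgfbr1 took 63.3, 77.9 and 56.1% of the counts on the 2 TGF-beta receptors in CTR and 0, 52.8, 45.7 and 72.3% in VPA (exact permutation test, p = 0.286). Pdgfa took 83.2, 73.6 and 76.4% of the counts on the 2 PDGF ligands in CTR and 98.3, 82.4, 100 and 79.2% in VPA (exact permutation test, p = 0.171). Pdgfra took 66.5, 48.1 and 73.5% of the counts on the 2 PDGF receptors in CTR and 78.9, 54.9, 100 and 100% in VPA (exact permutation test, p = 0.2). After adjustment over the 6 shares, all p-values were 0.4 or higher.

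**Figure D3:**
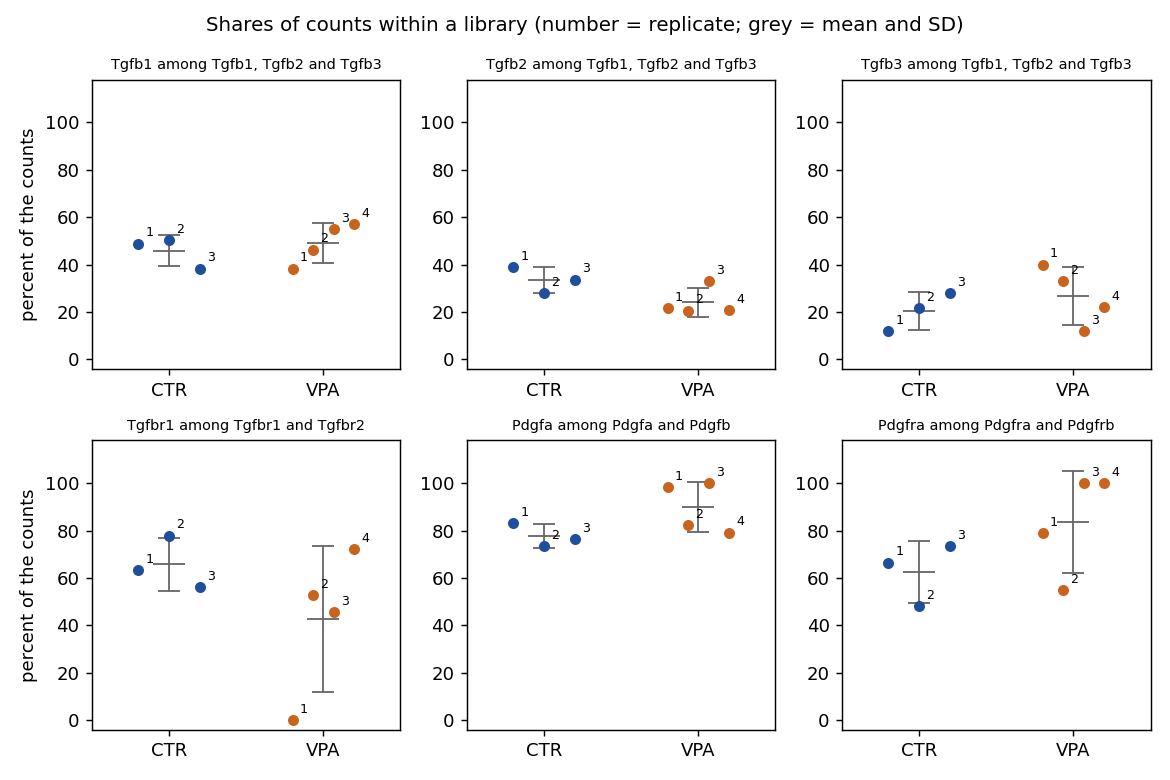
Shares of counts within a library. Each panel plots the percent of the counts of a ligand or receptor group taken by the gene named above it (vertical axis) in the 3 CTR and 4 VPA libraries (horizontal axis), with points numbered by replicate and grey bars for the mean and SD. In the panel of Tgfb2, VPA replicates 1, 2 and 4 lie between 20.6 and 21.7%, below the CTR libraries, and VPA replicate 3 is at 33.0%.

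Other genes of both pathways were taken from lists of 89 genes in 8 groups, of which 71 were tested. The lists were written from general knowledge, but with earlier results of these data known. The list of matrix targets holds Col1a1 and Col3a1, which the study had already reported as lower with VPA. None of the 71 passed edgeR's adjusted threshold. Of the 71, 49 had a lower and 22 a higher estimate, with a median log2 fold change of −0.22, against −0.06 over all genes tested. At an unadjusted p under 0.05, 7 were lower and 4 higher, where the shares of all genes were 4.62% and 3.65%. DESeq2 called 4 lower and none higher, where it called 0.754% of all genes lower and 0.256% higher. In every VPA library, 6 of the 71 lay below all CTR libraries and 4 lay above, which is near the 7.41% and 4.44% of all genes.

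**Figure D4:**
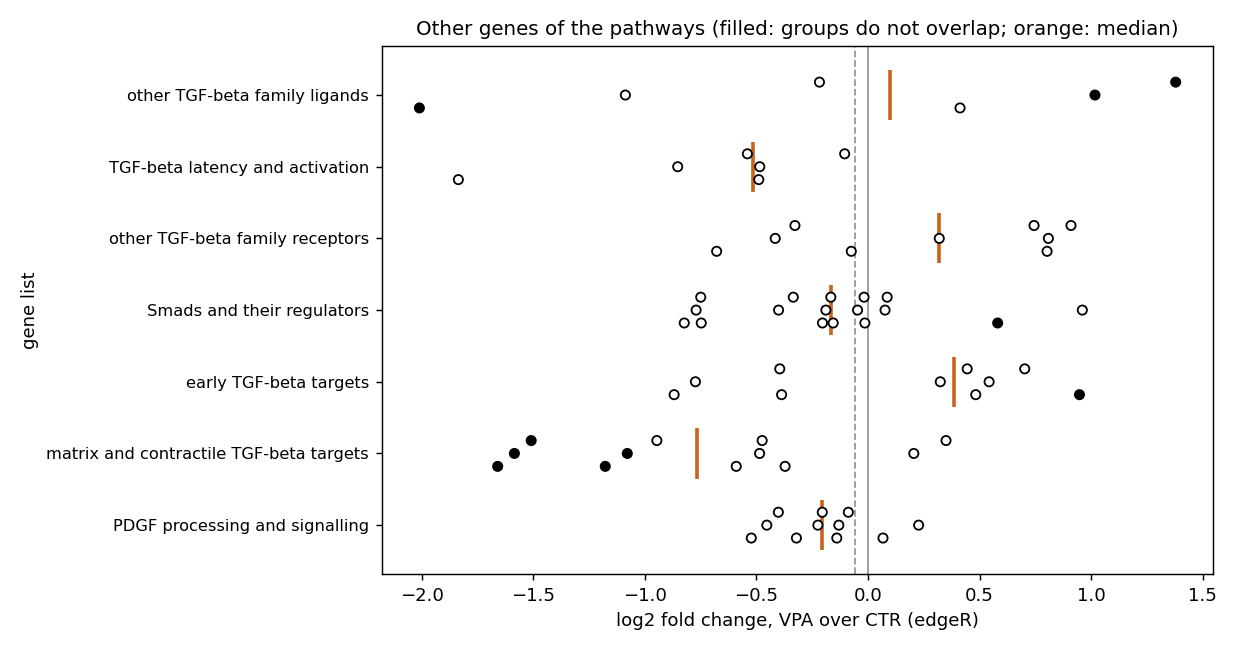
Other genes of the TGF-beta and PDGF pathways. Each point is the log2 fold change of VPA over CTR from edgeR (horizontal axis) of a tested gene, by list (vertical axis). Filled points are genes whose groups do not overlap, orange lines are list medians, the solid line is 0 and the dashed line is the median of all genes tested (−0.06). The lowest median is that of the matrix and contractile targets (−0.77), where 5 of 12 genes are filled, all below CTR. Of all genes tested, 7.41% lay below CTR in every VPA library.

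The plot of the lists shows the matrix and contractile targets of TGF-beta furthest to the left, with 10 of 12 genes at a lower estimate and a median of −0.77. Col1a1, a chain of type I collagen, measured 949, 515 and 704 CPM in CTR and 238, 172, 244 and 261 CPM in VPA. Its log2 fold change was −1.66 (SE 0.239, adjusted p = 0.112 by edgeR and 4.4e-07 by DESeq2). Col1a2, the other chain, averaged 556 ± 238 CPM (SD, n = 3) in CTR and 185 ± 30.1 CPM (SD, n = 4) in VPA (adjusted p = 0.213 by edgeR and 0.000539 by DESeq2). Both genes were called by DESeq2 but not by edgeR with filterByExpr. With a filter of at least 10 counts in every library, edgeR called both (adjusted p = 0.00745 and 0.0228), and without a filter it called Col1a1 (adjusted p = 0.0229).

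Vim, an intermediate filament of mesenchymal cells, averaged 654 ± 63.3 CPM (SD, n = 3) in CTR and 310 ± 67.7 CPM (SD, n = 4) in VPA (adjusted p = 0.193 by edgeR and 0.00162 by DESeq2). Tnc, the matrix glycoprotein tenascin C, measured 54.4, 59.9 and 51.0 CPM in CTR and 20.9, 28.3, 19.3 and 28.7 CPM in VPA (adjusted p = 0.244 by edgeR and 0.0375 by DESeq2). Col3a1, the type III collagen chain, had a log2 fold change of −1.51 (adjusted p = 0.417 by edgeR and 0.0613 by DESeq2). All 5 of these genes were below CTR in every VPA library, as were 7.41% of all genes tested. Lack of overlap was among the grounds for naming a gene. Fn1 (0.20) and Timp1 (0.35) were the 2 targets in the list with a higher estimate, and they are named after their values were seen.

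The early targets of TGF-beta were divided, with 4 of the 10 tested at a lower and 6 at a higher estimate and a median of 0.38. Junb, an AP-1 transcription factor, measured 158, 218 and 148 CPM in CTR and 369, 420, 310 and 250 CPM in VPA, without overlap. Its log2 fold change was 0.95 (SE 0.228; adjusted p = 0.310 by edgeR and 0.0535 by DESeq2). Among Smads and their regulators, 13 of 17 had a lower estimate, with a median of −0.17. Skil, which encodes the Smad corepressor SnoN, measured 73.7, 82.6 and 58.1 CPM in CTR and 99.9, 94.1, 122 and 113 CPM in VPA, without overlap (log2 fold change 0.58, edgeR, adjusted p = 0.462). Pmepa1, a target of TGF-beta that restrains Smad signalling, averaged 278 ± 87.7 CPM (SD, n = 3) in CTR and 163 ± 34.3 CPM (SD, n = 4) in VPA (log2 fold change −0.77, edgeR, adjusted p = 0.490).

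All 6 tested genes of TGF-beta latency and activation, such as latent binding proteins and the convertase that cleaves the ligand precursor, had a lower estimate, with a median of −0.51. None of them reached an unadjusted p under 0.05, and the groups overlapped for each. Of the other receptors of the family, 4 of 9 had a lower estimate, with a median of 0.32. The other ligands of the family were divided, with 3 lower and 3 higher and a median of 0.10. Inhba, the chain of activin A, measured 183, 363 and 185 CPM in CTR and 567, 383, 365 and 663 CPM in VPA (log2 fold change 1.02, edgeR, adjusted p = 0.487). Bmp2, a bone morphogenetic protein, measured 35.9, 39.6 and 39.5 CPM in CTR and 60.7, 104, 59.4 and 175 CPM in VPA (log2 fold change 1.38, edgeR, adjusted p = 0.422). Both were above CTR in every VPA library. Inhbb, the chain of activin B, measured 32.7, 41.8 and 28.0 CPM in CTR and 0, 22.1, 10.4 and 0 CPM in VPA, below CTR in every library (log2 fold change −2.01, edgeR, adjusted p = 0.782). Its estimate was −3.32 without VPA replicate 2 and −1.60 without VPA replicate 1.

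Of the genes of PDGF processing and signalling, 9 of the 11 tested had a lower estimate, with a median of −0.20. Nrp1, a co-receptor for PDGF and VEGF, averaged 167 ± 37.0 CPM (SD, n = 3) in CTR and 116 ± 19.4 CPM (SD, n = 4) in VPA (log2 fold change −0.52, edgeR, adjusted p = 0.575). The other PDGF ligands, Pdgfc and Pdgfd, did not pass the filter. Neither had a count in CTR. In VPA, Pdgfc was counted in replicate 3 alone, at 2.41 CPM, and Pdgfd measured 0, 2.15, 2.41 and 6.04 CPM. In VPA replicate 3, 2.41 CPM is 3 counts, the limit that a count of 0 sets there. These values rest on few reads, and neither gene was tested.

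The genes whose pattern over the 7 libraries was most like that of the 3 best counted members were sought by the root mean square (RMS) difference of log2 CPM after centring each gene on its own mean. For Pdgfa these were AC122861.1 (RMS 0.105), Tprgl (0.115) and Cdc34 (0.130), where Pdgfa itself had an RMS of 0.334 about its mean. For Smad7 they included Atad2 (0.0847) and Vangl1 (0.130), with 0.311 for Smad7 itself. For Pdgfra they were Mfge8 (0.120), Ndrg2 (0.157) and Tbc1d23 (0.167), with 0.463 for Pdgfra itself. Mfge8, a secreted glycoprotein, measured 400, 248 and 477 CPM in CTR and 392, 394, 630 and 722 CPM in VPA, and like Pdgfra it was lowest in CTR replicate 2 and highest in VPA replicate 4.

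**Figure D5:**
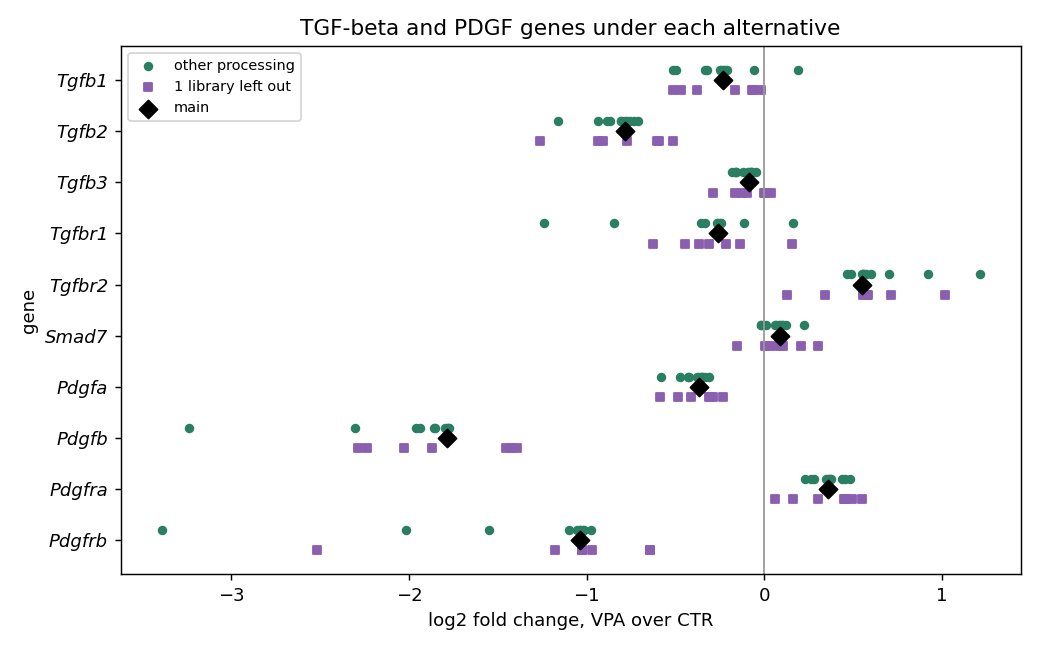
TGF-beta and PDGF genes under each alternative. The log2 fold change of VPA over CTR (horizontal axis) of each gene (vertical axis) is plotted for the reported fit (black diamonds), other processing (green points) and fits with 1 library left out (purple squares). Tgfb2, Tgfbr2, Pdgfa, Pdgfb, Pdgfra and Pdgfrb keep their sign throughout, while Tgfb1, Tgfb3, Tgfbr1 and Smad7 cross 0.

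The plot of the alternatives shows how far each estimate moved. Pdgfa stayed between −0.59 and −0.23 and Tgfb2 between −1.26 and −0.51. Pdgfb ranged from −3.24 to −1.39, and Pdgfrb from −3.39 to −0.64. Without CTR replicate 2, the estimate was 0.06 for Pdgfra and 0.13 for Tgfbr2, while that of Tgfbr2 was 1.21 with limma-voom. Pdgfrb was at −2.52 without VPA replicate 2. None of the 177 values reached an adjusted p under 0.05. The lowest adjusted p of any member was 0.281, for Tgfb2 with limma-voom.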

How the data were processed

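Per the labels and the study's methods, RNA of mouse PCLS was made into QuantSeq 3′ FWD libraries, sequenced as single-end reads and mapped to GRCm38.p6 (mm10) with STAR, and genes were assembled with StringTie. The authors deposited raw counts per Ensembl gene, 1 column per library, with no normalization. The counting program and its handling of strand and multiple mapping are not given in the sources used here. Symbols came from GENCODE M21. The fits were run in R 4.3.3 by edgeR 4.0.16 (TMM scaling, filterByExpr, robust quasi-likelihood fit, condition as the only term), limma 3.58.1 and DESeq2 1.42.0, which the study used and which was run as an alternative. Of the 55487 genes, 26086 had a count and 10876 were tested. The code was tested on simulated data. Between libraries of the same group, counts differed beyond sampling noise in all pairs (chi-square per degree of freedom 13.0 to 24.3). The members and gene lists were chosen with earlier results of these data known. Named were all members, up to 8 pathway genes per direction by the smallest p among those with an unadjusted p under 0.05 or without overlap whose higher group averaged 5 CPM or more, and the 3 genes most like each of the 3 members with the highest mean CPM, of which 1 is not reported here. Markers were named as the highest of a list or where at 0. Creb3l3, Fn1, Timp1, Pdgfc, Pdgfd, Tek, Lyve1, Oit3, Clec4g, Des, Lrat, Cps1, Cyp2e1 and Tat were named outside this rule, after their values were seen. Alternatives were other normalizations, filters, tests and dispersions, thinning to the smallest library, blocks by slice culture or replicate number, and leaving out each library.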

Additional observations from a re-analysis of the deposited data

Results flagged for a closer look

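In the 4 VPA libraries, the gap of the farthest library to its nearest neighbour was larger than Dixon's 95% limit for 4 of the 39 measures examined, where chance alone gives about 0.05 of all groups. For Pdgfa it was VPA replicate 1, at 75.7 CPM against 43.0 to 47.3 CPM in the other VPA libraries. For the share of Tgfb2 among the TGF-beta ligands it was VPA replicate 3, at 33.0% against 20.6 to 21.7%. The library total was 3102450 counts in VPA replicate 2, against 1400887 to 1515954. The summed level of the mesothelial markers was 19.6 CPM in VPA replicate 1, against 0 to 3.02 CPM.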

How the results depend on the processing

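Of 177 fold changes of the members under other settings, 169 kept their sign and 8 turned it, and none passed the adjusted threshold. The sign turned for Tgfb1 after thinning to the smallest library (0.19), for Tgfbr1 with a replicate block by slice culture (0.16) and for Smad7 without a filter on low counts (−0.0209) and with limma-voom (−0.0172). In the other direction, Tgfbr1 was at −1.24 with the block by replicate number and at −0.85 with limma-voom. With 1 library left out in turn, Tgfb3 ranged from −0.29 to 0.0348, and was above 0 without CTR replicate 3 or VPA replicate 3. Tgfb1 ranged from −0.51 without VPA replicate 3 to −0.0189 without VPA replicate 1. Tgfbr1 ranged from −0.63 to 0.16, above 0 without VPA replicate 1. Smad7 ranged from −0.15 to 0.30, below 0 without CTR replicate 3. The difference in the share of Tgfb1 ranged from −0.461 to 6.91 percentage points, below 0 without CTR replicate 3. Differences of the other shares kept their sign but moved. That of Tgfbr1 ranged from −32.9 points without VPA replicate 4 to −8.83 without VPA replicate 1. That of Tgfb3 ranged from 1.78 without VPA replicate 1 to 11.1 without VPA replicate 3. For Pdgfra the range was 13.5 without CTR replicate 2 to 30.3 without VPA replicate 2. Tgfbr1, Pdgfb and Pdgfrb have no value under the filter of at least 10 counts in every library, which they did not pass, and 4 of the 7 members left had a lower estimate. For all genes, the 1 call of edgeR became 10 without a filter, 36 with at least 10 counts in every library, 154 with DESeq2 and 3 after thinning, and between 0 and 2 with 1 library left out. It was 0 without CTR replicate 1 or 2 or VPA replicate 1 or 3. The 1 call was of a gene higher with VPA, whereas without CTR replicate 3 (1 call) and VPA replicate 4 (2 calls) all were lower, and without VPA replicate 2 there was 1 in each direction. For the pathway lists, the count of 0 became 1 without a filter (Col1a1), 3 with at least 10 counts in every library (Col1a1, Vim, Col1a2) and 4 with DESeq2 (these and Tnc). The cause of these changes was not tested.

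With a replicate block, whether by slice culture or by replicate number, 0 genes were called. Deviations from the group means correlated by 0.107 in culture 71, 0.0256 in culture 72 and 0.0546 in culture 74. Replicate numbers 2 and 3 join the same libraries as cultures 74 and 71, and replicate number 1 gave −0.0539. The labels do not say that either number pairs libraries, so the reported tests, also those of the shares, took the libraries as unpaired. These correlations do not settle whether they are pairs. The median log2 fold change of all genes was −0.13 with library totals only, −0.16 without a filter and −0.14 with limma-voom, against −0.06 as reported, and the members' median was −0.34, −0.33 and −0.47, against −0.25 as reported. It was −0.07 with at least 10 counts in every library (7 members), −0.09 without VPA replicate 1, −0.11 with the block by slice culture and −0.40 with the block by replicate number. At the members' level, the depth of the VPA libraries leaves 1 count worth 0.307 to 0.803 CPM, and counts such as the 2 of Pdgfb in VPA replicate 1 rest on few reads.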
